A study of Mus musculus with 2 samples.

Results

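The cells described here were chosen as lung pericytes, selected on the UMI counts of 10 genes in 2 single-cell RNA sequencing libraries of mouse lung. A UMI is a unique molecular identifier, so 1 UMI stands for 1 captured RNA molecule. A cell was taken when it held UMIs of at least 2 of *Cox4i2*, *Higd1b*, *Pdgfrb* and *Notch3*, among them *Cox4i2* or *Higd1b*, and 0 UMIs of *Myh11*, *Ptprc*, *Pecam1*, *Cdh5*, *Epcam* and *Msln*, which mark smooth muscle, immune, endothelial, epithelial and mesothelial cells. This rule found 131 of 45824 kept cells, 95 in the *Pclaf* WT library and 36 in the *Pclaf* KO library. The levels of those 10 genes are therefore given as a description of the choice. Many of the cells held few other pericyte genes, so the whole set is called pericyte-marker cells.

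*Pclaf* encodes the PCNA clamp-associated factor, and the study compared lungs of WT mice with lungs of mice carrying a knockout (KO) of it. Both groups were mice of 8 to 10 weeks whose lungs were taken 1 week after bleomycin, a lung-injuring agent given at 1.35 U/kg according to the series description. Lung cells were labelled as sorted Cd31-/Cd45-/Epcam+ epithelial cells, a gate that should leave pericytes out. There was 1 library per genotype, with no statement of how many animals went into it, so genotype and library cannot be told apart and no test between genotypes was possible. Intervals below are exact 95% intervals and cover counting error only.

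Pericytes are mural cells that lie inside the capillary basement membrane and wrap the endothelium. Endothelial PDGF-B, acting on their receptor PDGFRB, recruits and keeps them, and NOTCH3 carries a further signal from endothelium to mural cells. Endothelial nitric oxide activates soluble guanylate cyclase in mural cells, and the cGMP it makes relaxes them through the kinase PRKG1 until phosphodiesterases such as PDE5A remove it. In the lung, *Cox4i2* and *Higd1b*, which encode mitochondrial proteins, are much used as pericyte markers.

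The WT library held 98171818 UMIs in 30669 barcodes, of which 30187 were kept, with a median of 2127 UMIs per cell. The KO library held 111267567 UMIs in 17172 barcodes, of which 15637 were kept, with a median of 5957 UMIs. The libraries shared 163 barcodes, and 0 of these belonged to pericyte-marker cells. Pericyte-marker cells made up 0.315% of kept WT cells (0.255% to 0.385%) and 0.230% of kept KO cells (0.161% to 0.319%), so the intervals overlapped. The gate and the gap in depth can both set these shares. With every cell thinned to 1000 UMIs before the rule was applied, and shallower cells left out, 60 WT and 30 KO cells met it, or 0.264% and 0.207%. In all, WT pericyte-marker cells held 214989 UMIs, with a median of 1421 per cell and a range of 502 to 10453. KO pericyte-marker cells held 145110 UMIs, with a median of 2898.5 and a range of 544 to 13911.

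*Pclaf* itself was counted at 3 UMIs in 3 WT pericyte-marker cells and at 0 UMIs in KO pericyte-marker cells. Scaled to counts per 1000000 UMIs (CPM), that was 13.95 in WT. In KO 3 UMIs would be reached only at 20.7 CPM, so a difference was not detectable at this depth. Among the other kept cells *Pclaf* stood at 39.4 CPM in the WT library and 5.20 CPM in the KO library. Whether the counted 3' tag lies inside the deleted part of the gene is not given in the sources used here.

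*Cox4i2* (chr2:152754173-152765037, plus strand, GRCm38) was counted in 76 WT and 32 KO pericyte-marker cells, with 170 and 97 UMIs. *Higd1b* (chr11:102835849-102838040, plus strand) was counted in 67 and 18 cells, with 106 and 26 UMIs. *Pdgfrb* was counted in 58 and 29 cells and *Notch3* (chr17:32120820-32166852, minus strand) in 43 and 19 cells. Cells with 3 or 4 of the markers numbered 35 in WT and 17 in KO, or 0.116% (0.0808% to 0.161%) and 0.109% (0.0633% to 0.174%) of kept cells. The remaining 60 WT and 19 KO cells held exactly 2 markers, and these carried 68.4% and 73.3% of all of their UMIs. In WT the 2-marker cells had a median of 1221.5 UMIs and the others 1781, while in KO the 2-marker cells were the deeper ones, with 5553 against 2003.

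Levels of other pericyte genes are given as a description. A list of 26 pericyte identity genes summed to 13031 CPM in WT and 13432 in KO cells with 3 or 4 markers, to 2006 and 837 CPM in the 2-marker cells, and to 1051 and 296 CPM in other kept cells. This list was chosen with earlier results of these data known and was led by *Postn*, so its sums are no support for the label. Per cell, 8 genes outside the rule were counted, namely *Trpc6*, *Gucy1a1*, *Gucy1b1*, *Pde5a*, *Postn*, *Kcnk3*, *Art3* and *Vtn*. They were chosen after their values in these cells were seen, and several of them lead the ranking of genes given further on, so their presence is no support for the label. Cells with 3 or 4 markers held a median of 6 of them in both libraries, and 32 of 35 WT and 16 of 17 KO cells held at least 3. Cells with 2 markers held a median of 2 in WT and 0 in KO, and 19 of 60 WT and 1 of 19 KO cells held at least 3. The WT 2-marker cells were shallow, with a median of 1221.5 UMIs. Genes of another class were counted too, and 19 WT (20%) and 13 KO (36.1%) pericyte-marker cells held at least 2 of 5 alveolar fibroblast genes. Of these, 8 and 6 also held at least 3 of the 8 genes. As a measure of background, cells with *Cox4i2* or *Higd1b* alone held at least 3 of the 8 in 5 of 273 WT cells (median 803 UMIs) and 5 of 196 KO cells (median 6176.5 UMIs). The 2-marker cells stood at 1 of 19 in KO, with a median of 5553 UMIs, and at 19 of 60 in WT. The genes were chosen on these cells, the KO value rests on 1 cell and the WT background cells were shallower. Nothing is therefore read from either comparison.

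Just outside the rule lay 25 WT and 18 KO cells with *Pdgfrb* and *Notch3* only, of which 8 and 1 held at least 3 of the 8 genes. A further 354 WT and 85 KO cells met the marker condition and also held an excluded gene. Of these, 197 WT and 56 KO cells held at least 3 of the 8. In WT the excluded genes were mostly *Pecam1* (213 cells) and *Cdh5* (189 cells), and in KO mostly *Myh11* (51 cells) and *Epcam* (27 cells). Several of the 8 genes were also counted in smooth muscle cells, where *Postn* stood at 722 CPM and *Gucy1a1* at 530 in WT. The KO cells with an excluded gene held *Acta2*, a smooth muscle actin, at 2516 CPM, so which kind of cell they were was not settled by these genes. *Rgs5*, a pericyte marker in many organs, had 0 UMIs in the pericyte-marker cells of both libraries, while its level in other kept cells was 5.00 CPM for WT and 0.59 CPM for KO.

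**Figure D1:**
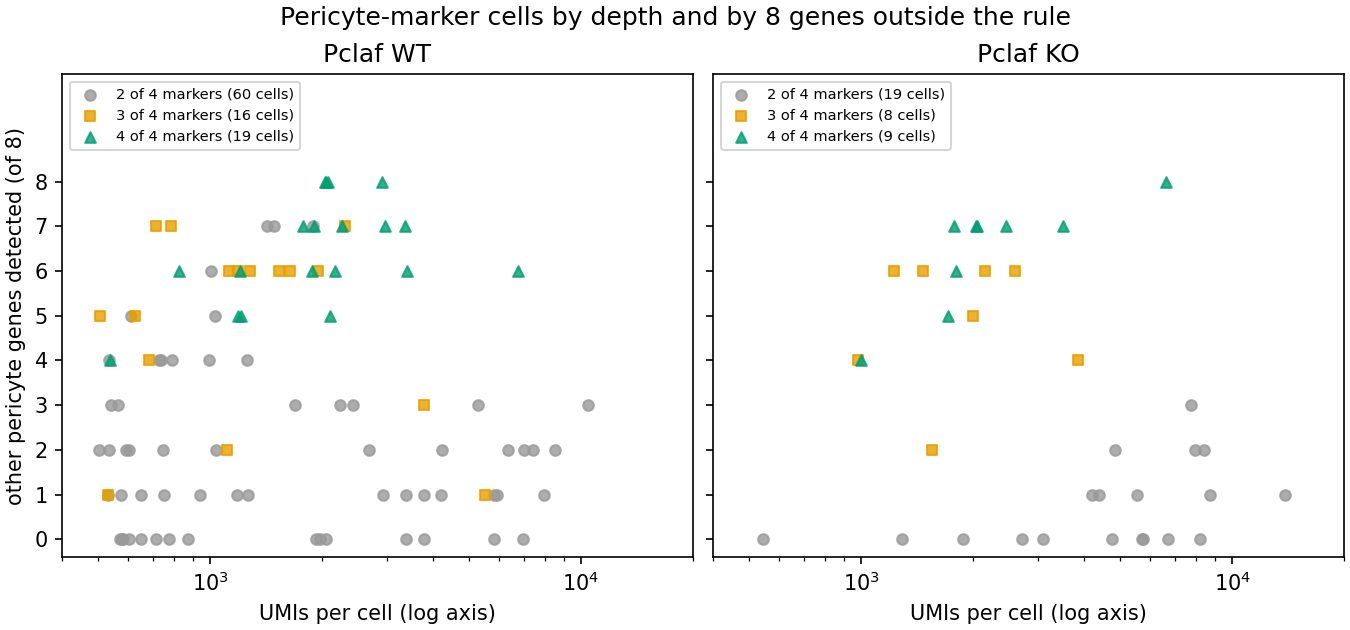
Each point is 1 pericyte-marker cell, with its UMIs on the horizontal log axis and the number of 8 pericyte genes outside the rule that it held on the vertical axis, for WT (left) and KO (right), shaped by how many of the 4 rule markers it held. Cells with 3 or 4 markers held a median of 6 of the 8 genes in both libraries, and the 2-marker cells a median of 2 in WT and 0 in KO, although the deepest cells are among them.

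The genes that stood highest in pericyte-marker cells over all other kept cells were ranked by the lower of the 2 libraries, among genes with at least 50 UMIs in both. The cells were chosen by markers, so these ranks are a description without a test. *Adcy8*, an adenylyl cyclase, led with log2 ratios of 6.49 in WT and 8.79 in KO, followed by the cation channel *Trpc6* with 6.11 and 7.82. *Postn*, which encodes the matrix protein periostin, had 5.36 and 7.01. Next came *Gucy1a1* (5.36 and 6.14), *Clstn2* (5.32 and 5.68), *Gucy1b1* (5.24 and 6.46), *Pde5a* (4.84 and 5.42), *Arhgap42* (4.71 and 5.05) and *Pdzd2* (4.71 and 4.91). Both soluble guanylate cyclase subunits and the phosphodiesterase that removes their product were therefore among the leading 7 genes. The genes for the subunits are neighbours on chromosome 3, *Gucy1b1* at chr3:82032006-82074689 and *Gucy1a1* at chr3:82092427-82145789, both on the minus strand and 17737 bases apart. The rest of the first 20 were *Ltbp2*, *Kcnq5*, *Sox5*, *Lhfp*, *Lama2*, *Prkg1*, *Ppp1r14a*, *Adgrg6*, *Sdc2*, *Ism1* and *Mfge8*, with log2 ratios from 2.53 to 6.71. Some of these were lower than in a similar class, or close to it. *Ppp1r14a* stood at 535 CPM in WT pericyte-marker cells and 926 in WT smooth muscle cells, and *Prkg1* at 1581 and 1544. Cells with 3 or 4 markers held more *Prkg1* than smooth muscle cells, by 1.24 (1.04 to 1.43) in WT and 1.98 (1.70 to 2.24) in KO on the log2 scale, and *Ppp1r14a* was at -0.36 (-0.81 to 0.06) in WT and 1.03 (0.63 to 1.41) in KO. *Lama2*, a laminin chain, stood at 456 CPM in WT against 557 in alveolar and 865 in adventitial fibroblasts.

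To show sequence at leading genes, 250 bases before the transcription start of *Trpc6*, *Gucy1b1* and *Postn* are given from RefSeq (GRCm38.p6), 5′ to 3′ on the strand of the gene. Capitals mark ACGTG, the core of the hypoxia response element, in *Trpc6* (chr9:8543892-8544141, plus strand, first base 94 before the start) and TGGGAA, the core bound by the Notch partner RBPJ, in *Gucy1b1* (chr3:82074712-82074961, minus strand, first base 65 before the start). The *Postn* window (chr3:54360857-54361106, plus strand) held neither.
Trpc6: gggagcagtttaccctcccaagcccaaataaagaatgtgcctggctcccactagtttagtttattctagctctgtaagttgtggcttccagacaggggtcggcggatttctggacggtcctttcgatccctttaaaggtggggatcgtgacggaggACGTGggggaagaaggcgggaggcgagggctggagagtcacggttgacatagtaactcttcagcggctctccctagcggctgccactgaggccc
Gucy1b1: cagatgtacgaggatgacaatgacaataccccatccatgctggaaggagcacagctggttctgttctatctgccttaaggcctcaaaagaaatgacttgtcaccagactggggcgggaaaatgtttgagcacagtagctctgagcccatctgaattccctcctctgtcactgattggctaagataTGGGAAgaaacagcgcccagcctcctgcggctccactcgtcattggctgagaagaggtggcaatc
Postn: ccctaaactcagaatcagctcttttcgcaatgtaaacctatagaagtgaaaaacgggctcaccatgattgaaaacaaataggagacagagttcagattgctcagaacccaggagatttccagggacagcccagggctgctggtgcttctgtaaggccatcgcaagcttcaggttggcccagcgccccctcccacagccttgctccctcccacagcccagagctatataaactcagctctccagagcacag
Both motifs were searched on both strands. ACGTG was present in 16.6% of 32851 windows of this length and TGGGAA in 21.6%. Of the 20 leading genes 17 had windows, 21 in all, and ACGTG was in 1 and TGGGAA in 7 of them (33.3%). A match is a description of these letters and not a site of binding.

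**Figure D2:**
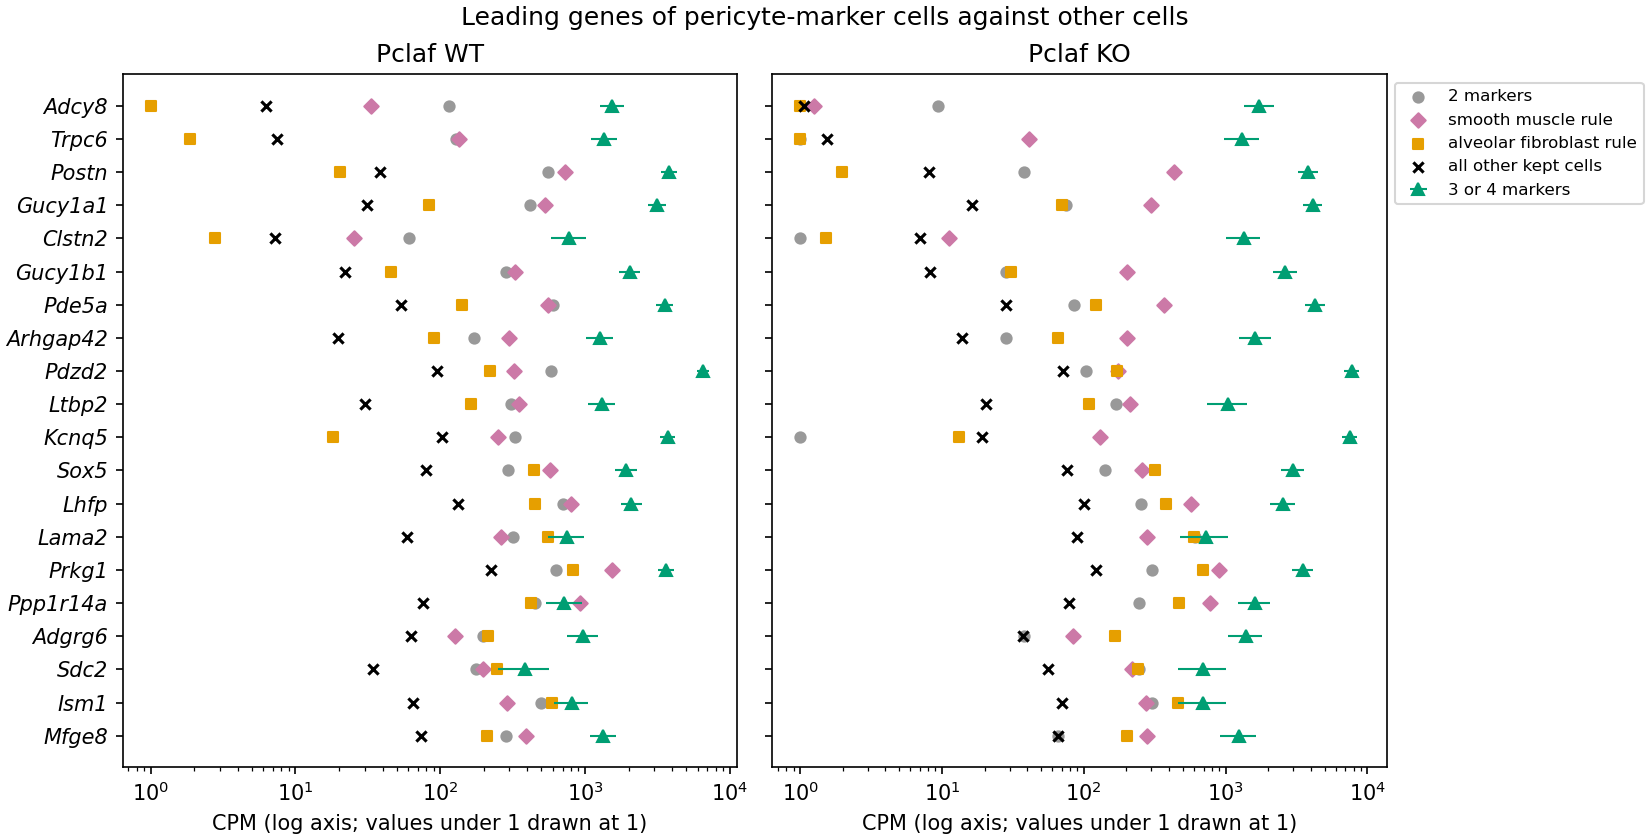
The 20 leading genes are shown in CPM on a log axis for WT (left) and KO (right), with triangles for cells with 3 or 4 markers and their exact 95% counting interval, circles for 2-marker cells, diamonds for smooth muscle cells, squares for alveolar fibroblasts and crosses for all other kept cells. *Adcy8* in cells with 3 or 4 markers stands at 1546 CPM in WT and 1727 in KO, against 6.31 and 1.06 in other kept cells.

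Among cells with 3 or 4 markers, several leading genes had KO over WT ratios whose intervals included 0. *Adcy8* was at 1546 CPM in WT and 1727 in KO, against 6.31 and 1.06 in other kept cells. *Trpc6* was at 1355 and 1315 CPM, and *Postn* at 3799 and 3816. The KO over WT log2 ratio in these cells was -0.04 (-0.57 to 0.47) for *Trpc6* and 0.01 (-0.30 to 0.30) for *Postn*. Others were higher in KO, among them *Kcnq5* with 1.01 (0.76 to 1.26), *Ppp1r14a*, an inhibitor of myosin phosphatase, with 1.15 (0.58 to 1.72), and *Clstn2* with 0.78 (0.20 to 1.36). Smooth muscle markers also stood higher in these KO cells, by 0.76 (0.33 to 1.19), with 33.3% of their KO UMIs in 1 cell, and their part in the ratio of *Ppp1r14a* was not tested. For *Kcnq5*, a potassium channel gene, 1 KO cell held 169 of 291 UMIs, and over all pericyte-marker cells its ratio went from 0.52 to -0.58 without the top cell of each library. For such values over all pericyte-marker cells, the UMIs of the gene or list in its top cell were taken out and the library totals kept. For lists in cells with 3 or 4 markers, the top cell was instead left out whole, so the totals changed too. For *Clstn2* 1 KO cell held 24 of 52 UMIs, and the ratio went from 0.31 to -0.43. All KO UMIs of both genes lay in cells with 3 or 4 markers. Their higher KO values there thus rested largely on 1 cell each. Of the KO UMIs of *Trpc6* 1 cell held 20 of 51, and of those of *Adcy8* 1 cell held 31 of 68. Over all pericyte-marker cells the ratio went from -0.55 to -1.11 (-1.74 to -0.51) for *Trpc6* without the top cells. For *Adcy8* it went from -0.28 to -0.98 (-1.56 to -0.43), and for *Postn* from -0.59 to -0.80 (-1.11 to -0.50). In the 2-marker cells *Trpc6* was at 129 CPM in WT and at 0 UMIs in KO, and *Postn* at 558 and 37.6 CPM. *Ppp1r14a* was at 449 and 245 CPM there, against 721 and 1598 in cells with 3 or 4 markers.

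*Acta2* and *Tagln*, contractile genes of smooth muscle, stood below their level in smooth muscle cells. The rule left out cells with *Myh11*, and the smooth muscle class required it. These choices build in such a gap, and nothing is read from its size. *Acta2* stood at 442 CPM in WT and 593 in KO cells with 3 or 4 markers, against 8494 and 7229 CPM in smooth muscle cells, which were 224 WT and 154 KO cells with *Myh11* and at least 2 other contractile genes. *Tagln* was at 368 and 799 CPM, against 6432 and 6100. The genes highest over smooth muscle cells were *Adcy8* (log2 ratios of 4.10 in WT and 8.55 in KO, the latter with an interval of 6.03 to 13.88 on 1 UMI in KO smooth muscle cells), *Spp1*, *Cadm1*, *Clstn2*, *Inmt*, *Pdzd2*, *Olfml3* and *Hsd11b1*. *Inmt* is also an alveolar fibroblast gene, and its level lay mostly in 2-marker cells, at 1394 CPM in WT and 1232 in KO, against 383 and 129 CPM in cells with 3 or 4 markers. Alveolar fibroblasts, taken as cells with at least 2 of *Npnt*, *Ces1d*, *Col13a1*, *Slc7a10* and *Tcf21* and a fibrillar collagen gene, numbered 1202 in WT and 1972 in KO. Over them the highest genes were *Adcy8* (9.67 in WT, 8.09 to 11.97, and 12.35 in KO, 9.83 to 17.68), *Trpc6* (8.12, 7.09 to 9.36, and 11.94, 9.39 to 17.27), *Clstn2*, *Postn*, *Kcnq5*, *Ebf1*, *Itga1* and *Gucy1b1*. Alveolar fibroblasts held 3 UMIs of *Adcy8* in WT and 1 in KO, and 8 and 1 of *Trpc6*. *Ebf1*, a transcription factor, and *Itga1*, a collagen-binding integrin, were at 1855 and 1988 CPM in WT cells with 3 or 4 markers and both at 1882 CPM in KO.

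*Ndufa4l2*, a hypoxia-induced relative of the respiratory chain gene *Ndufa4*, was at 427 CPM in WT and 1083 in KO cells with 3 or 4 markers, a log2 ratio of 1.34 (0.63 to 2.08). Over all pericyte-marker cells the ratio was 0.39 (-0.22 to 0.99). *Cox4i1*, the broadly used counterpart of *Cox4i2*, was at 427 and 387 CPM in those cells and at 704 and 600 CPM in other kept cells. Of 11 widely used respiratory chain genes 9 passed the filter on low counts described next, and their summed level in all pericyte-marker cells had a KO over WT log2 ratio of -0.26 (-0.47 to -0.06), which was 0.04 (-0.37 to 0.44) in the cells with 3 or 4 markers.

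Between genotypes, 2589 genes had a mean level of at least 68.9 CPM, which would give 10 UMIs in the smaller pool. With no replicates, a gene counted as different when the libraries lay at least 2-fold apart. Of these genes 114 (4.4%) were higher in KO and 246 (9.5%) higher in WT, and the log2 ratio, KO over WT, had a median of -0.17. Among cells with 3 or 4 markers 24 genes were higher in KO and 36 in WT, of 590 genes that passed the same filter there. Every list of genes below is read against these shares and that median.

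**Figure D3:**
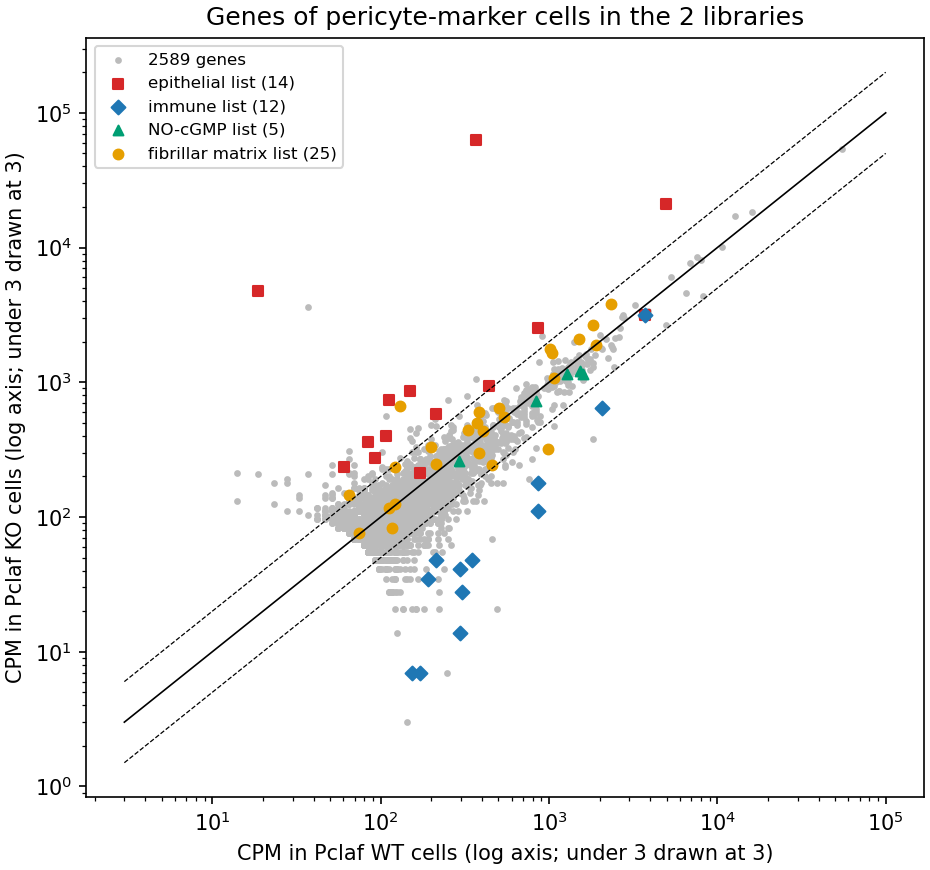
Each point is 1 of 2589 genes, with its CPM in WT pericyte-marker cells on the horizontal and in KO pericyte-marker cells on the vertical log axis, the solid line marking equal levels and the dashed lines 2-fold. Of the epithelial list 12 genes lie above the upper dashed line, of the immune list 11 lie below the lower one, and the 5 genes of the nitric oxide and cGMP list lie between the lines.

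Among genes whose mean level would give at least 50 UMIs in the smaller pool, most of the largest ratios toward KO were those of airway and alveolar epithelial genes. *Scgb3a2* (log2 ratio 8.01) and *Scgb1a1* (7.43) are club cell secretory proteins, and *Sftpc* (2.07), *Sftpa1* (1.57) and *Cxcl15* (1.52) are products of alveolar type 2 cells. One KO cell held 689 of the 695 UMIs of *Scgb3a2*, and without the top cell of each library its ratio was 1.57 (-0.66 to 4.19), on 3 WT and 6 KO UMIs. A single KO cell held 8954 of the 9169 UMIs of *Scgb1a1* and 527 of the 529 of *Retnla* (6.61). Without the top cells the ratio was 2.19 (1.79 to 2.60) for *Scgb1a1* and turned sign for *Retnla*, to -0.43 (-3.90 to 2.37) on 4 WT and 2 KO UMIs. The cell with most of both had 2 markers and 13911 UMIs, of which 70.1% were of the epithelial list. The doublet caller Scrublet, which marked 7.76% of WT and 2.70% of KO cells, left 93 WT and 36 KO pericyte-marker cells, so this cell was not among those it marked. The other KO-high genes named by the same rule were *Cbr2* (2.72), *Ager* (2.53), *Dcn* (2.36) and *Scd1* (1.57). One KO cell held 104 of 125 UMIs of *Ager* and one held 78 of 107 of *Cbr2*. With the top cells out the ratio was 0.71 for *Ager*, under 2-fold, and 2.62 for *Cbr2*, and it rose to 3.64 for *Sftpc*, 3.57 for *Sftpa1*, 2.40 for *Cxcl15*, 3.12 for *Dcn* and 2.13 for *Scd1*. *Sftpa1* turned to -0.31 (-0.70 to 0.08) among cells under 10% mitochondrial UMIs. Without cells over 5% epithelial and immune UMIs *Cxcl15* was at -0.01 (-1.03 to 0.95), and with the upper limit on genes applied to UMIs *Scd1* was at -0.30 (-1.80 to 1.03). *Dcn*, a matrix proteoglycan, had 0 UMIs in KO cells with 3 or 4 markers and 3 UMIs in those of WT.

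Toward WT, 4 of the 5 largest ratios among the same genes were those of antigen presentation genes, and *Spp1* was the other. *H2-Ab1* had a log2 ratio of -2.96, *H2-Aa* -2.26, *H2-Eb1* -1.98 and *Cd74* -1.67. In cells with 3 or 4 markers these genes had few UMIs. The ratio there was -0.78 (-3.30 to 1.23) for *H2-Ab1*, on 9 WT and 3 KO UMIs, and -1.51 (-3.94 to 0.31) for *H2-Aa*, on 15 and 3. It turned sign for *H2-Eb1*, to 1.81 (-0.09 to 3.99) on 4 and 8 UMIs, and was 1.78 (-0.02 to 3.74) in cells with at least 3 of the 8 genes. For *Cd74* it was 0.26 (-0.88 to 1.35), with 19 WT and 13 KO UMIs, and over all pericyte-marker cells 1 WT cell held 146 of the 443 WT UMIs. *Spp1*, which encodes osteopontin, had -2.28 (-2.71 to -1.87) over all pericyte-marker cells and -0.35 (-0.84 to 0.12) in cells with 3 or 4 markers. One WT cell held 178 of its 395 WT UMIs, and without the top cells the ratio over all pericyte-marker cells was -1.87 (-2.40 to -1.38). *Spp1* was also lower in KO smooth muscle cells (-3.74), alveolar fibroblasts (-2.03) and adventitial fibroblasts (-2.07). In these classes *H2-Ab1* was at -1.53, -0.88 and -1.39, *Epas1* at -1.33, -1.69 and -4.53, and *Robo2* at 0.26, 0.04 and -0.01. Whether these ratios are particular to pericyte-marker cells was not tested. *Fn1*, fibronectin, had -1.64 (-2.13 to -1.17) and -3.58 (-6.68 to -1.64), the latter on 42 WT and 2 KO UMIs. The remaining genes were *Robo2* (-1.58), *Dock4* (-1.56), *Ext1* (-1.46) and *Epas1* (-1.38). For *Robo2* 1 WT cell held 42 of 115 WT UMIs, and without the top cells the ratio was -1.54 (-2.39 to -0.76). With cells holding any of 5 fibroblast genes left out, *Dock4* turned to 2.51 (-0.29 to 5.98) and *Ext1* to 0.21 (-0.95 to 1.27), and *Dock4* was at 0.10 (-0.90 to 1.04) in cells with at least 3 of the 8 genes. *Epas1*, which encodes the hypoxia-responsive factor HIF-2 alpha, was at 1355 CPM in WT and 825 in KO cells with 3 or 4 markers, a ratio of -0.72 (-1.34 to -0.12).

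Markers of other cells differed between the libraries, and their part in the ratios of all pericyte-marker cells was not tested. Of 18 epithelial markers 14 passed the filter, 12 were at least 2-fold higher in KO and 0 in WT. Their summed level was 11512 CPM in WT and 99345 in KO, led by *Sftpc* in WT (43.2% of the list) and *Scgb1a1* in KO (63.6%), and 0 of the 18 were at 0 UMIs in either library. One cell held 56.2% of the list in WT and one 67.6% in KO. The summed level also stood higher in KO smooth muscle cells, by 4.62 (4.54 to 4.71) on the log2 scale, and in KO alveolar fibroblasts, by 1.78 (1.76 to 1.80). In KO adventitial fibroblasts it was higher by 4.09 (3.92 to 4.26), and other kept cells held 22680 CPM in WT and 172358 in KO. Of 18 immune markers 12 passed, 0 were higher in KO and 11 in WT, with 9754 CPM in WT and 4369 in KO, led by *Lyz2* in both, which is in the epithelial list too. At 0 UMIs were 1 of them in WT and 4 in KO. Their summed level was higher in KO smooth muscle cells, by 0.86 (0.76 to 0.96). It was at 0.01 (-0.03 to 0.04) in alveolar fibroblasts and -1.21 (-1.46 to -0.97) in adventitial fibroblasts. When the rule was applied to cells thinned to 1000 UMIs, the sign of this list turned, to 0.44 (0.28 to 0.59).

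Of 17 endothelial markers 4 passed, 0 were higher in KO and 3 in WT, with 1409 CPM in WT and 386 in KO, led by *Cd36* and *Eng*, and 0 were at 0 UMIs in WT and 6 in KO. Under the rule on thinned cells their ratio was 0.11 (-0.13 to 0.36), against -1.87 (-2.31 to -1.45). The adventitial fibroblast markers summed to 1061 and 2288 CPM, led by *Ly6a* in WT and *Dcn* in KO, with 8 of 12 passing, 4 higher in KO and 1 in WT, and 1 at 0 UMIs in WT. Alveolar fibroblast markers summed to 6614 and 5155 CPM, led by *Macf1*, with 9 of 13 passing and 0 past 2-fold. Smooth muscle markers summed to 1028 and 1461 CPM, led by *Hhip*, with 5 of 11 passing, 1 higher in KO, and 1 at 0 UMIs in WT and 4 in KO. Hemoglobin and other red cell genes had 26 UMIs in WT and 4 in KO, and mesothelial genes 5 in each. Among cells with 3 or 4 markers, epithelial markers were at 1369 and 6265 CPM, immune markers at 1590 and 1392 CPM and alveolar fibroblast markers at 3607 and 1573 CPM. One KO cell held 27 of the 54 KO UMIs of the immune markers, and their ratio went from -0.19 (-0.69 to 0.29) to -0.95 (-1.63 to -0.32) without the top cells. Endothelial markers were at 1502 and 825 CPM there, a ratio of -0.86 (-1.49 to -0.28), and smooth muscle markers at 1369 and 2320 CPM, a ratio of 0.76 (0.33 to 1.19).

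The nitric oxide and cGMP list held 14 genes, of which 13 were found in the files and 5 passed the filter. Of those 5, 0 were past 2-fold in either direction, and their median ratio was -0.21. *Gucy1a1*, the alpha subunit of soluble guanylate cyclase, was at 3151 CPM in WT and 4125 in KO cells with 3 or 4 markers, a log2 ratio of 0.39 (0.08 to 0.69). The beta subunit *Gucy1b1* was at 2032 and 2630 CPM (0.37, -0.01 to 0.75). *Pde5a* was at 3549 and 4280 CPM (0.27, -0.02 to 0.56), and the kinase *Prkg1* at 3637 and 3506 CPM (-0.05, -0.37 to 0.25). Over all pericyte-marker cells *Gucy1a1* had -0.14 (-0.43 to 0.14) and *Gucy1b1* -0.21 (-0.57 to 0.14). *Pde5a* had -0.35 (-0.62 to -0.08) there and *Prkg1* -0.45 (-0.73 to -0.18). Without the top cells these ratios were -0.41, -0.56, -0.99 and -0.65.

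The summed level of this list over all pericyte-marker cells was 5740 CPM in WT and 4659 in KO, a log2 ratio of -0.30 (-0.44 to -0.16). In cells with 3 or 4 markers the sign turned, with 13355 and 15649 CPM and 0.23 (0.08 to 0.38). Per cell, the list ranged from 1634 CPM over a median of 12780 to 26369 in WT, and from 2584 over 15748 to 28688.5 in KO, so the cells of the genotypes overlapped. One KO cell with 4 markers held 189 of the UMIs of the list, 28.0% of the KO total, and it was the cell that held most of *Kcnq5*. With the top cell of each library left out whole, the ratio in cells with 3 or 4 markers was 0.02 (-0.15 to 0.20).

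Of 26 pericyte identity genes 14 passed the filter, 1 was higher in KO (*Cygb*) and 1 in WT (*Vtn*), and the median ratio was -0.49. The summed level had a ratio of -0.38 (-0.53 to -0.24) over all pericyte-marker cells, 0.04 (-0.12 to 0.20) in cells with 3 or 4 markers and -0.03 (-0.20 to 0.15) there without the top cells. *Cygb*, cytoglobin, had 28 KO UMIs, 0 of them in cells with 3 or 4 markers. *Vtn*, vitronectin, was at 280 CPM in WT and 155 in KO cells with 3 or 4 markers, a ratio of -0.85 (-2.47 to 0.53). *Cspg4*, the proteoglycan NG2, was at 206 and 284 CPM, and *Kcnk3*, an acid-sensing potassium channel of lung vessels, at 707 and 593.

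**Figure D4:**
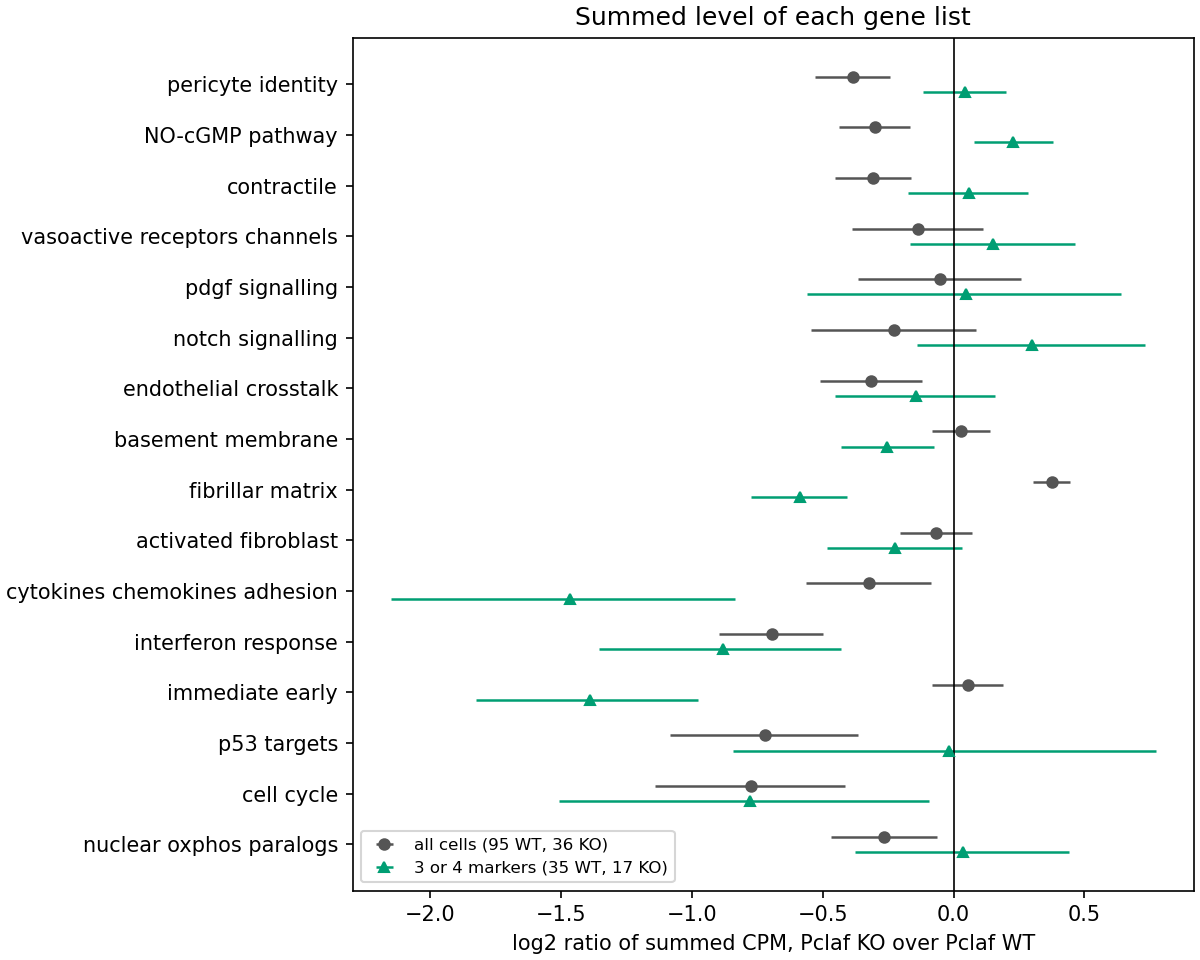
The log2 ratio of the summed CPM of each gene list, KO over WT, is shown with its exact 95% counting interval for all pericyte-marker cells (circles) and for cells with 3 or 4 markers (triangles). The fibrillar matrix list stands at 0.38 over all pericyte-marker cells and -0.59 in cells with 3 or 4 markers, and the immediate early list at 0.05 and -1.39.

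Of 20 contractile genes 13 passed, 0 were higher in KO and 1 in WT. Their summed ratio was -0.31 (-0.45 to -0.16), and 0.06 (-0.17 to 0.29) in cells with 3 or 4 markers. Of 20 vasoactive receptors and channels 5 passed, 1 higher in KO and 2 in WT. *Ednra*, the receptor of endothelin, was at 898 CPM in WT and 541 in KO cells with 3 or 4 markers, a ratio of -0.73 (-1.52 to 0.01). *Agtr1a*, the angiotensin receptor, was at 294 and 180 CPM, and *Cacna1c*, a calcium channel subunit, at 1634 and 1985. The intervals of these 3 ratios included 0, with -2.19 to 0.59 for *Agtr1a* and -0.16 to 0.71 for *Cacna1c*.

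For signals shared with endothelium the lists were short, and their counts past 2-fold stand beside 4.4% of all genes tested for KO and 9.5% for WT. Of 10 PDGF pathway genes 5 passed and 1 was higher in KO, with a summed ratio of -0.05 (-0.36 to 0.26), and 0.05 (-0.56 to 0.64) in cells with 3 or 4 markers. Of 15 Notch pathway genes 6 passed and 1 was higher in WT, with -0.23 (-0.54 to 0.09) and 0.30 (-0.14 to 0.73). Of 24 genes of endothelial crosstalk 12 passed with 0 past 2-fold, and the summed ratio was -0.31 (-0.51 to -0.12), and -0.14 (-0.45 to 0.16) in cells with 3 or 4 markers. One KO cell held 42 of the 137 KO UMIs there, and without the top cells the ratio was -0.42 (-0.78 to -0.07). *Angpt1*, the ligand of the endothelial receptor TIE2, was at 1090 CPM in WT and 980 in KO cells with 3 or 4 markers, a ratio of -0.15 (-0.76 to 0.43).

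Of 19 basement membrane genes 12 passed, 2 higher in KO and 1 in WT. Their summed ratio was 0.03 (-0.08 to 0.14), and -0.25 (-0.43 to -0.08) in cells with 3 or 4 markers. *Col4a1*, a chain of collagen IV, was at 2415 and 1934 CPM there (-0.32, -0.73 to 0.08), and *Lamc1*, a laminin chain, at 383 and 129 CPM (-1.57, -3.31 to -0.17).

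Fibrillar matrix genes turned sign between the kinds of cell. Of 27 listed 25 passed, 2 higher in KO and 1 in WT, with a median ratio of 0.37. The summed level was 16229 CPM in WT and 21053 in KO, a ratio of 0.38 (0.30 to 0.45), and 1 KO cell with 2 markers held 955 of its UMIs, 31.3% of the KO list. With the top cell of each library left out the ratio was 0.02. In cells with 3 or 4 markers it was -0.59 (-0.77 to -0.41), with 13060 and 8688 CPM, and -0.36 (-0.57 to -0.15) without the top cells. Per cell these ranged from 891 over a median of 6843 to 38809 CPM in WT and from 2045 over 4981 to 24975 CPM in KO, so the cells overlapped. In similar classes, taken whole, the list was also lower in KO. It had -0.13 (-0.17 to -0.10) in smooth muscle cells, -0.19 (-0.20 to -0.18) in alveolar and -0.32 (-0.35 to -0.29) in adventitial fibroblasts. Whether the lower level is particular to pericyte-marker cells was not tested. *Eln*, elastin, was at 1723 and 335 CPM in cells with 3 or 4 markers (-2.36, -3.31 to -1.53), and *Mgp*, matrix Gla protein, at 10704 and 2475 CPM (-2.11, -2.44 to -1.80). In the 2-marker cells *Mgp* was at 18419 and 24210 CPM, and alveolar fibroblasts held 31660 and 36342 CPM. In smooth muscle cells, alveolar and adventitial fibroblasts *Eln* had ratios of -0.70, -0.38 and -0.00013, and *Mgp* 1.04, 0.20 and 0.44. Fibroblast markers were also lower in KO in cells with 3 or 4 markers. Those of alveolar fibroblasts stood there at 3607 CPM in WT and 1573 in KO, a ratio of -1.20 (-1.63 to -0.79), led over all pericyte-marker cells by *Macf1*. One WT cell held 82 of their 245 WT UMIs, the ratio without the top cells was -0.69 (-1.17 to -0.23), and it turned to 0.11 (-0.16 to 0.37) in cells with at least 3 of the 8 genes. Those of adventitial fibroblasts stood at 530 and 180 CPM, a ratio of -1.55 (-2.97 to -0.37) on 36 and 7 UMIs. Their part in the lower matrix genes was not tested.

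Genes of activated fibroblasts, 23 of 25 found, had 12 passing, 4 higher in KO and 3 in WT, and a summed ratio of -0.07 (-0.20 to 0.07). It was -0.22 (-0.48 to 0.03) in cells with 3 or 4 markers. One WT cell held 23.9% of the list, and without the top cells the ratio was 0.13. It was -1.05 with cells holding any of 5 fibroblast genes left out and 0.63 with the gene limits applied to UMIs. *Cthrc1*, a marker of fibrotic fibroblasts, had 1 UMI in each library. *Igfbp7* was at 902 CPM in WT and 2205 in KO pericyte-marker cells (1.29, 1.03 to 1.55), and at 1045 and 722 CPM in cells with 3 or 4 markers (-0.53, -1.22 to 0.12).

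Immediate early genes, which many cells switch on within minutes of stress or dissociation, had a summed ratio of 0.05 (-0.08 to 0.19) over all pericyte-marker cells, with 17 of 25 passing, 1 higher in KO and 1 in WT. In cells with 3 or 4 markers they summed to 3917 CPM in WT (266 UMIs) and 1495 in KO (58 UMIs), a ratio of -1.39 (-1.82 to -0.97). *Junb* had 38 WT and 3 KO UMIs there (-2.85, -5.20 to -1.20), and *Fos* 26 and 1 (-3.89, -9.25 to -1.29). The cells overlapped, with a median of 1783 CPM in WT and 1292 in KO and highest values of 24685 and 4239. The ratio was -1.40 (-1.89 to -0.94) without the top cells. When cells were taken by at least 3 of the 8 other pericyte genes, an alternative chosen after the data were seen, it was -0.22 (-0.53 to 0.07). In similar classes, taken whole, the list had 0.39 (0.34 to 0.44) in smooth muscle cells and 0.37 (0.35 to 0.39) in alveolar fibroblasts. The value for the whole set of pericyte-marker cells is the 0.05 given above. Adventitial fibroblasts had -0.01 (-0.09 to 0.07).

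Of 24 cytokine, chemokine and adhesion genes 8 passed, 1 higher in KO and 2 in WT, with a summed ratio of -0.32 (-0.56 to -0.09). In cells with 3 or 4 markers it was -1.47 (-2.15 to -0.84), on 121 WT and 25 KO UMIs, and -0.61 (-1.12 to -0.12) in cells with at least 3 of the 8 genes. *Il6st*, the shared receptor chain of the interleukin-6 family, had 24 and 4 UMIs (-1.78, -3.76 to -0.24). Of 24 interferon response genes 6 passed, 0 higher in KO and 1 in WT. Their ratio was -0.70 (-0.90 to -0.50) over all pericyte-marker cells and -0.88 (-1.35 to -0.43) in cells with 3 or 4 markers. It was -0.34 without cells over 5% epithelial and immune UMIs and -0.28 under the rule on thinned cells. Immune and endothelial markers were also lower over all KO pericyte-marker cells, and their part in this ratio was not tested. The ratio was -0.27 (-0.38 to -0.17) in smooth muscle cells, -0.37 (-0.40 to -0.34) in alveolar fibroblasts and -0.83 (-0.94 to -0.72) in adventitial fibroblasts, so it was negative in each class measured. *B2m*, the light chain of MHC class I, was at 1209 CPM in WT and 675 in KO pericyte-marker cells (-0.84, -1.19 to -0.50).

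Cell cycle genes were rare. Of 24 genes 4 passed with 0 past 2-fold, and the list summed to 1061 CPM in WT and 620 in KO (-0.77, -1.14 to -0.42), led by the tubulin gene *Tubb5*. The ratio was -0.78 (-1.51 to -0.09) in cells with 3 or 4 markers. It was also negative in smooth muscle cells (-0.83, -0.98 to -0.68), alveolar fibroblasts (-0.39, -0.44 to -0.34) and adventitial fibroblasts (-0.50, -0.74 to -0.27). Other kept cells held 1701 CPM in WT and 1028 in KO. *Mki67* had 2 UMIs in WT and 0 in KO, and *Top2a* 3 and 0. Of 17 p53 target genes 3 passed, with 0 higher in KO and 1 in WT, and a summed ratio of -0.72 (-1.08 to -0.37), which was -0.02 (-0.84 to 0.77) in cells with 3 or 4 markers. *Cdkn1a*, the cell cycle inhibitor p21, had 48 WT and 3 KO UMIs (-3.43, -5.76 to -1.80), of which 3 and 1 were in cells with 3 or 4 markers.

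The nuclear-retained RNA *Malat1* was at 12745 CPM in WT and 17187 in KO pericyte-marker cells, and at 15504 and 27973 CPM in cells with 3 or 4 markers (0.85, 0.73 to 0.98). It stood higher in KO in the other classes compared as well, at 8040 and 14351 CPM in other kept cells and by 0.36 (0.33 to 0.39) in smooth muscle cells, 0.31 (0.30 to 0.33) in alveolar fibroblasts and 0.57 (0.50 to 0.64) in adventitial fibroblasts on the log2 scale. Median mitochondrial shares were 5.61% of UMIs in WT and 3.89% in KO pericyte-marker cells, against 4.50% and 4.89% in all kept cells. Among single cells thinned to 1000 UMIs, the genes with the highest variance over mean, ranked by the lower of the libraries, were *Sftpc* (95.5 in WT and 127 in KO), *Mgp* (33.6 and 41.4), *Sftpa1*, *Lyz2*, *Malat1*, *Eln*, *Pdzd2* and *Gsn*. In KO alone *Scgb1a1* was higher, at 579 against 1.89 in WT, and *Scgb3a2* stood at 45.0. Single cells carried much of this spread, since 1 WT cell held 832 of 1069 UMIs of *Sftpc* and 1 held 156 of 184 of *Sftpa1*. *Xist* had 79 and 74 UMIs in WT and KO pericyte-marker cells and the Y-linked *Ddx3y* 10 and 8, so both kinds of transcript were counted in each library. The study's methods state that the mice were male, and the source of the *Xist* transcripts was not tested.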

How the data were processed

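Cells labelled as sorted lung epithelium, from WT mice and from mice lacking *Pclaf*, were profiled by droplet single-cell 3′ RNA sequencing, 1 library per genotype, with groups taken from the genotype labels. The files the authors deposited hold unnormalised UMI counts of 31053 genes in each barcode, made with Cell Ranger (3.1.0 in the submitters' processing notes and 5.0.0 in the matrix header) and STAR on GRCm38/mm10, and no normalised values were used. Barcodes were listed from 500 UMIs up. Those with more than 200 and fewer than 5000 genes and under 20% mitochondrial UMIs were kept. The study's methods put those limits on the number of RNAs detected, read here as genes, and the reading as UMIs, an alternative, left 82 WT and 25 KO members. Counts of pericyte-marker cells were summed per library and divided by the total to give CPM. Log2 ratios were taken with nothing added, except that 0.5 UMIs were added to both counts where one was 0, and intervals are exact Poisson, conditional and binomial ones at 95%. PCR duplicates were collapsed by UMI, and intervals and floors (3 counts) cover counting error only. With 1 library per genotype no test was run and no p-value is given.

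The members and the 28 gene lists were chosen with earlier results of these data known. Genes were compared where their mean CPM would give 10 UMIs in the smaller pool. Besides genes of the lists, the text names the 20 genes highest in pericyte-marker cells over other kept cells and the 8 highest over smooth muscle cells and over alveolar fibroblasts (at least 50 UMIs in both libraries, ranked by the lower library), the 10 highest and 10 lowest KO over WT ratios (50 expected UMIs) and the 8 highest Fano factors at 1000 UMIs (ranked by the lower library). Genes of the rule, mitochondrial and ribosomal protein genes and unnamed models were left out of these ranks. Doublets were called with Scrublet and kept, and leaving them out was an alternative. Other alternatives varied the cell filters, the marker rule, thinning, cell weights, scaling (TMM) and the filter on low counts. The ratio intervals and the thinning step were tested on simulated Poisson counts, which leave out the uneven spread of a gene over cells. The cell rule, the lists and the ranks were not tested in this way. Python 3.11.15, NumPy 2.4.6, SciPy 1.17.1, pandas 2.3.3, scanpy 1.11.5, matplotlib 3.10.9, R 4.3.3 and edgeR 4.0.16 (TMM factors only) were used.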

Additional observations from a re-analysis of the deposited data

Results flagged for a closer look

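In the KO library, 5 of 1535 barcodes outside the cell filters met the marker rule, with a median of 803 UMIs, and in the WT library 2 of 482 did, with a median of 607 UMIs. They drew attention because they lie in data that the comparisons do not use, and their cells were not tested further.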

How the results depend on the processing

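The share of pericyte-marker cells, the 2-fold counts and the summed lists depended on which cells were taken, while TMM scaling moved the fibrillar matrix list and the epithelial markers and no other list. Of the values of these results under all alternatives, 192 stayed within the limits set for a like value, 105 moved and 19 turned sign from an interval that excluded 0. For single genes and the marker lists of other cells, 508 stayed, 241 moved and 50 turned in this way. With intervals that included 0 counted too, 61 of 256 ratios of the first kind and 89 of 799 of the second turned sign. Leaving out cells over 5% epithelial and immune UMIs, taking cells by the 8 other genes and leaving out the top cell were chosen after seeing the data. The interferon and cell cycle lists stayed negative and the epithelial list positive under every alternative run. Each of these lists had the same sign in smooth muscle cells and in alveolar and adventitial fibroblasts. The cause of the changes below was not tested. With the gene limits applied to UMIs, 51 genes were 2-fold higher in KO and 64 in WT and pericyte-marker cells were 0.393% of KO cells. The log2 ratios were then contractile 0.25, PDGF 0.28, Notch 0.094, endothelial crosstalk -0.12, basement membrane -0.11, fibrillar matrix 0.091, activated fibroblast 0.63, *Ism1* 0.33, *Kcnq5* -0.23, *Lama2* -0.13, *Retnla* -0.93 and *Scd1* -0.30. In cells with 3 or 4 markers, 24 genes were 2-fold higher in KO and 36 in WT and pericyte-marker cells were 0.116% of WT cells and 0.109% of KO cells. Here the log2 ratios were pericyte identity 0.044, NO-cGMP 0.23, contractile 0.058, vasoactive 0.15, Notch 0.30, basement membrane -0.25, fibrillar matrix -0.59, activated fibroblast -0.22, cytokines -1.47, immediate early -1.39, p53 targets -0.018, respiratory chain 0.036 and adventitial fibroblast markers -1.55. Others were *Cd74* 0.26, *Dcn* -1.999 (on 0 KO UMIs), *H2-Eb1* 1.81, *Lama2* -0.057, *Lhfp* 0.27, *Pde5a* 0.27, *Pdzd2* 0.24 and *Postn* 0.0064. Without the excluded genes, 492 genes were 2-fold higher in KO and 1021 in WT and pericyte-marker cells were 1.49% of WT cells and 0.774% of KO cells. Log2 ratios then stood at pericyte identity -0.56, NO-cGMP -0.50, contractile 0.29, vasoactive 0.19, Notch -0.56, endothelial crosstalk -0.61, basement membrane -0.16, activated fibroblast 0.31, interferon response -0.90, p53 targets -0.16, cell cycle -0.36, respiratory chain 0.073 and alveolar fibroblast markers 0.19. Others were adventitial fibroblast markers -0.58 and *Kcnq5* -0.23. With cells holding any of 5 fibroblast genes left out, 42 genes were 2-fold higher in KO and 73 in WT and pericyte-marker cells were 0.169% of WT cells and 0.0703% of KO cells. The log2 ratios were then pericyte identity -0.24, contractile 0.18, vasoactive 0.89, Notch 0.32, endothelial crosstalk 0.052, fibrillar matrix -1.07, activated fibroblast -1.05, interferon response -1.46, immediate early 0.26, p53 targets -1.26, alveolar fibroblast markers 0.47, *Dock4* 2.51 and *Ext1* 0.21. Others were *Ism1* 0.16. In cells with at least 3 of the 8 other genes, 35 genes were 2-fold higher in KO and 32 in WT and pericyte-marker cells were 0.169% of WT cells and 0.109% of KO cells. Here the log2 ratios were pericyte identity 0.048, NO-cGMP 0.29, contractile -0.13, vasoactive 0.29, PDGF 0.27, Notch 0.30, endothelial crosstalk -0.00030, basement membrane -0.10, fibrillar matrix -0.21, activated fibroblast -0.61, cytokines -0.61, immediate early -0.22 and alveolar fibroblast markers 0.11. Others were *Ager* -0.31, *Dock4* 0.10, *H2-Eb1* 1.78, *Ism1* 0.050, *Lhfp* 0.19, *Pde5a* 0.27, *Pdzd2* 0.34, *Prkg1* 0.24 and *Trpc6* 0.0047. With cells weighted equally, 260 genes were 2-fold higher in KO. Log2 ratios then stood at pericyte identity -0.20, NO-cGMP 0.051, contractile -0.029, vasoactive 0.36, Notch 0.087, endothelial crosstalk 0.020, fibrillar matrix 0.52, activated fibroblast 0.34, *Ism1* 0.17, *Pdzd2* 0.082 and *Prkg1* 0.31. With pericyte-marker cells thinned to 1000 UMIs, 21 genes were 2-fold higher in KO and 22 in WT. The log2 ratios were then pericyte identity -0.18, contractile 0.0018, Notch 0.11, basement membrane -0.089, cytokines -0.67, cell cycle -0.26, red cell markers 0.26, *Ism1* 0.047 and *Mfge8* 0.036. Without the top cell, 61 genes were 2-fold higher in KO. Here the log2 ratios were pericyte identity -0.62, NO-cGMP -0.67, basement membrane -0.16, fibrillar matrix 0.021, activated fibroblast 0.13, *Kcnq5* -0.58, *Lama2* -0.0094 and *Retnla* -0.43. At 5 expected UMIs, 348 genes were 2-fold higher in KO and 665 in WT. At 20 expected UMIs, 46 genes were 2-fold higher in KO and 83 in WT. With no filter, 2348 genes were 2-fold higher in KO and 4158 in WT. With the rule on thinned cells, 113 genes were 2-fold higher in WT. Log2 ratios then stood at contractile -0.61, vasoactive -0.41, basement membrane -0.43, fibrillar matrix -0.29, interferon response -0.28, immediate early -0.25, respiratory chain 0.063, immune markers 0.44, endothelial markers 0.11, smooth muscle markers -0.79, red cell markers 0.20, *Lama2* -0.011 and *Sdc2* -0.0069. Without cells over 5% epithelial and immune UMIs, 125 genes were 2-fold higher in WT. The log2 ratios were then pericyte identity -0.12, NO-cGMP -0.031, contractile -0.12, endothelial crosstalk -0.093, basement membrane 0.29, fibrillar matrix 0.66, activated fibroblast 0.15, interferon response -0.34, immediate early 0.28, *Cxcl15* -0.0093, *Pdzd2* 0.062 and *Retnla* -2.16. With no upper gene limit, the log2 ratios were pericyte identity -0.56 and immediate early 0.23. At 500 genes or more, the log2 ratios were fibrillar matrix 0.29. Under 10% mitochondrial UMIs, the log2 ratios were fibrillar matrix 0.51 and *Sftpa1* -0.31. With TMM scaling, the log2 ratios were fibrillar matrix 0.45. No paired analysis was possible because each genotype had 1 library. Depth limits genes under 13.95 CPM in WT and 20.7 CPM in KO, where 3 counts are not reached.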
